A study of Mus musculus with 4 samples.

Results

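The genes described here are 10 transcription factor genes, many of them immediate early genes, taken by gene symbol. They are the AP-1 genes Jun, Junb, Jund, Fos and Fosb, the related Atf3, the early growth response genes Egr1, Egr2 and Egr3, and the nuclear receptor gene Nr4a1. All 10 were found among the 24411 gene symbols of each library, and all 10 passed the filter on low reads. RNA came from B cells of mouse bone marrow, sorted for the surface protein B220. There were 2 libraries labelled Arid5b overexpression and 2 wildtype libraries; the labels give no strain, age, sex, promoter driving Arid5b or number of mice per library. The design asks how gene expression in B cells differs when Arid5b, a chromatin regulator of the ARID family, is raised. Arid5b itself had 3804 and 136.1 CPM (a gene's reads relative to its library's depth) in overexpression-labelled libraries 1 and 2, against 148.6 and 173.6 CPM in wildtype libraries 1 and 2, so it was raised in overexpression-labelled library 1 (log2 difference from wildtype 4.41, SE 0.126, limma adjusted p = 1.28e-11) and went against the label of overexpression-labelled library 2. For that reason each overexpression-labelled library is given by itself throughout.

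AP-1 is a dimer of a Jun protein with a Fos or ATF partner, and it binds short DNA elements through a basic leucine zipper. Egr proteins are zinc finger factors, and Nr4a1 is an orphan nuclear receptor. Many genes of these families, though not all, are switched on within minutes of a stimulus without new protein synthesis. In B cells signals from the antigen receptor are a well known trigger. Handling and dissociation of cells can also induce such genes.

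Library totals ran from 14196665 to 20356404 reads assigned to genes, and Rn45s, the ribosomal RNA precursor, took 25.69% to 30.52% of them. The 9 B cell markers examined, Cd79a and Pax5 among them, all had reads in each of the 4 libraries and summed to 3348 and 6216 CPM in overexpression-labelled libraries 1 and 2, against 5568 and 6304 CPM in wildtype libraries 1 and 2. They did not move as 1 group. Ptprc, the gene of the protein that carries B220, had 5683 and 38260 reads in the overexpression-labelled libraries, against 35704 and 27790 reads in the wildtype libraries, and Ms4a1 had 149 and 12012 reads in the overexpression-labelled libraries, against 8257 and 8108 reads in the wildtype libraries. Pax5 had 4897 and 2934 reads in the overexpression-labelled libraries, against 2915 and 2147 reads in the wildtype libraries, and Cd79b and Ebf1 were likewise highest in overexpression-labelled library 1, with 6116 and 14227 reads. The part of these differences in the values of the 10 genes was not tested. Wildtype library 1 held 3260 reads of the Y-linked Ddx3y and 24 of Xist, whereas the other 3 libraries held 0 or 1 and at least 68540. Nothing in the labels says that libraries came from separate mice, so p-values measure the spread between these libraries at most. Where an overexpression-labelled library is set by itself against wildtype, or against the other, that spread comes from the wildtype pair and limma's prior. The spread between the overexpression-labelled libraries does not enter those p-values.

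The stretches before the start sites of 4 of the genes are shown because these genes had the widest differences in either direction among those with a printable promoter. Each holds the 250 bases upstream of a start site, from RefSeq on GRCm38.p6, and 8 of the 10 genes were matched, all but Egr1 and Egr3. Capitals mark TGACG, the core of sites for CREB and ATF proteins, TGACNTCA, a longer form that holds sites for ATF and Jun proteins, TGACTCA, the classical AP-1 element, and the CArG box, the site of serum response factor. Both strands were searched, and TGACG can overlap TGACNTCA. Egr2 has 5 listed start sites, and the first of the 3 with the most matches is shown.
Egr2, chr10:67537619-67537868, plus strand: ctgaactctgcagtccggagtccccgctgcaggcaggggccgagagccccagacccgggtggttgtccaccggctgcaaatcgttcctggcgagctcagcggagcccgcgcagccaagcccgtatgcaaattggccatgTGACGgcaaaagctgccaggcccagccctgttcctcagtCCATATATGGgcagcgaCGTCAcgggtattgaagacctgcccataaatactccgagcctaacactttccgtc
Nr4a1, chr15:101266596-101266845, plus strand: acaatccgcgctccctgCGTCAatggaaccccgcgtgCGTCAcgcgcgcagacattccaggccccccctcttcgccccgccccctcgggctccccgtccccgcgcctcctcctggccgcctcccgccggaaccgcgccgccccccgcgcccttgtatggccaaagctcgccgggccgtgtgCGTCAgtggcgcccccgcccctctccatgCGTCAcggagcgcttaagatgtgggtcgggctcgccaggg
Jun, chr4:95052223-95052472, minus strand: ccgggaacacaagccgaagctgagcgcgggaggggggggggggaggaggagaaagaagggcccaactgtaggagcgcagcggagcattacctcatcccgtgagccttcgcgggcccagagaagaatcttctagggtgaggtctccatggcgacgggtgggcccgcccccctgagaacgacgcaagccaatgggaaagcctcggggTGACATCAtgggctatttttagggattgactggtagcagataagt
Fos, chr12:85473640-85473889, plus strand: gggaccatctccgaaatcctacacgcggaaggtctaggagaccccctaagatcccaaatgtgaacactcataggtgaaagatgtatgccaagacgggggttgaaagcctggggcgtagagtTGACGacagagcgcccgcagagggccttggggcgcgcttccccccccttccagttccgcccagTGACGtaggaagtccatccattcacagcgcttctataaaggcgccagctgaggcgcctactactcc

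Nr4a1 held 4 copies of TGACG, Egr2 (at the start site shown) and Fos 2 each, and Fosb, Junb and Atf3 1 each. Some of the other start sites of Egr2 held no TGACG. Jun held 1 copy of TGACNTCA and Jund held none of the motifs. The CArG box lay upstream of Egr2 at 4 of its 5 start sites. Over 32851 mouse promoters of the same length, TGACG occurred in 17.8%, TGACNTCA in 7.49%, TGACTCA in 4.46% and the CArG box in 1.47%. Genes whose values moved in opposite directions (Nr4a1 and Fos) thus both hold TGACG in these windows. A match is a description of the letters, and the motifs were chosen after these promoters had been seen.

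In overexpression-labelled library 1 the genes divided. Jun, Fos and Atf3 were higher than in wildtype, and Egr1, Egr2, Egr3, Nr4a1, Fosb and Jund were lower, with falls of 8.78-fold to 78.1-fold for the 3 Egr genes and Nr4a1. In overexpression-labelled library 2 the same 10 genes had ratios of 0.819 to 1.75 to the wildtype mean of normalised reads. All but Atf3 lay nearer wildtype there than in library 1. Atf3 differed from wildtype by 0.56 in library 1 and 0.59 in library 2. The median difference of the 10 genes in library 2 was 0.41, against 0.01 over all genes tested, with 8 above wildtype and 2 below. By limma, 9 of the 10 passed an adjusted p of 0.05 in library 1, 3 higher and 6 lower. In that comparison 61.2% of the 12617 genes tested passed, 26.8% higher and 34.4% lower, so a call by itself does not set these genes apart, and the sizes of the differences carry the description. With 1 library the spread must come from elsewhere: the test takes it from the wildtype pair and from limma's prior over all genes, and it compares this library, not the genotype. In bulk libraries fewer cells of a type and less RNA per cell cannot be told apart. With no filter on low reads, Egr3 and Nr4a1 were the only members still called.

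**Figure D1:**
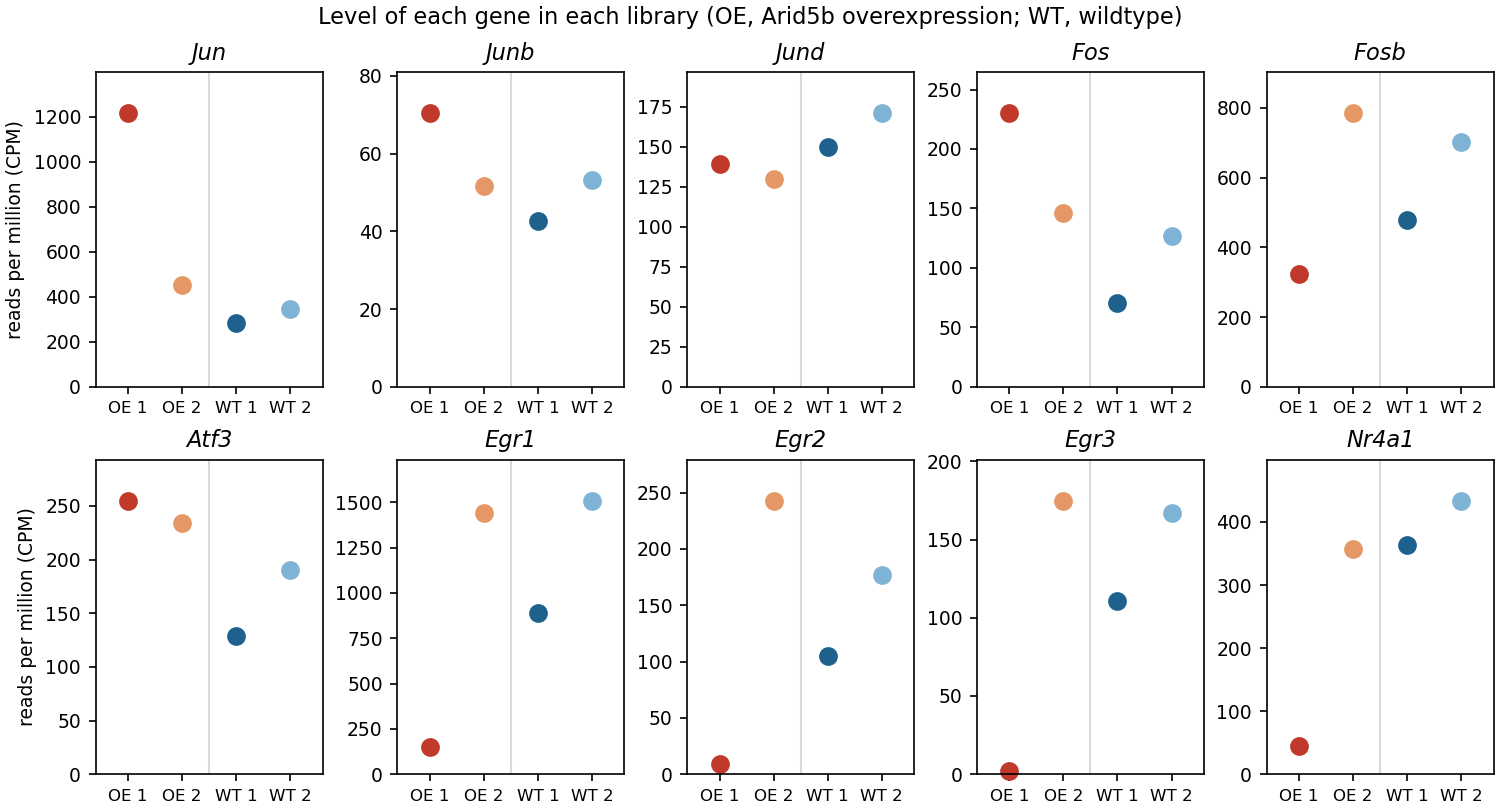
CPM (linear axes from 0) of each of the 10 genes in each library; each point is 1 library, with no error bar because a library is a single measurement. Jun and Fos are highest in overexpression-labelled library 1, at 1216 and 230 CPM, whereas Egr1, Egr2, Egr3 and Nr4a1 are lowest there, at 151, 9.03, 1.96 and 45 CPM.

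Among the Jun genes, Jun rose. Jun (ENSMUSG00000052684.4, chromosome 4, 95049034 to 95052222, minus strand, GRCm38), the founding partner of AP-1, had 1216 and 451 CPM in overexpression-labelled libraries 1 and 2, against 285 and 348 CPM in wildtype libraries 1 and 2. Both overexpression-labelled libraries lay above both wildtype libraries. On the deposited log2 scale Jun in library 1 exceeded wildtype by 1.80 (SE 0.132; adjusted p by limma, 8.49e-08), and its normalised reads were 3.47-fold higher. In library 2 the difference was 0.53 (SE 0.14, limma adjusted p = 0.0916). Library 1 also exceeded library 2 by 1.27 (SE 0.154, limma adjusted p = 2.15e-05).

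Junb and Jund, which encode the other Jun proteins, had small differences. Junb (chromosome 8, 84974484 to 84978718) had 70.4 and 51.7 CPM in the overexpression-labelled libraries, against 42.8 and 53.2 CPM in the wildtype libraries, and the groups overlapped. Its difference in library 1 was 0.40 (SE 0.179, limma adjusted p = 0.0664), which passed with recomputed size factors (0.51) and with totals without Rn45s (0.61). Jund (chromosome 8, 70698949 to 70700616) had 139 and 130 CPM in the overexpression-labelled libraries, against 150 and 171 CPM in the wildtype libraries. Both overexpression-labelled libraries lay below both wildtype libraries, by 0.35 in library 1 (SE 0.139, limma adjusted p = 0.044), a call that did not hold by limma-voom, on a log2 scale with 0.5 added, or with either other scaling of the libraries, where the difference ran from -0.35 to -0.15. Of the reads of the 3 Jun genes, Jun itself took 85.3% and 71.2% in the overexpression-labelled libraries, against 59.6% and 60.8% in the wildtype libraries.

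The Fos genes moved in opposite directions in overexpression-labelled library 1, but not in library 2, where both values lay above wildtype. In library 2 neither passed by limma on the deposited scale, though both passed as higher by limma-voom. Fos (ENSMUSG00000021250.13, chromosome 12, 85473890 to 85477273, plus strand), the partner of Jun in the classical AP-1 dimer, had 230 and 146 CPM in the overexpression-labelled libraries, against 70.4 and 127 CPM in the wildtype libraries. In library 1 the difference from wildtype was 1.12 (SE 0.235, limma adjusted p = 0.00109), a call lost with a robust prior (adjusted p = 0.0782), and library 2 was 0.64 above (SE 0.244, limma adjusted p = 0.222). The wildtype libraries themselves differed by 0.80 in Fos, and the 2 overexpression-labelled libraries were not told apart (difference 0.48, SE 0.274, limma adjusted p = 0.155).

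Fosb (ENSMUSG00000003545.3, chromosome 7, 19302696 to 19310051, minus strand), a close relative of Fos, had 324 and 784 CPM in the overexpression-labelled libraries, against 477 and 701 CPM in the wildtype libraries. Library 1 was the lowest of the 4 and library 2 the highest. Fosb fell by 0.98 in library 1 (SE 0.171, limma adjusted p = 0.000267), to 0.499 of the wildtype level of normalised reads. In library 2 it differed from wildtype by 0.45 (SE 0.176, limma adjusted p = 0.231), and library 1 lay 1.43 below library 2 (difference -1.43, SE 0.2, limma adjusted p = 6.8e-05). There were 1.41 and 5.36 Fosb reads for each Fos read in overexpression-labelled libraries 1 and 2, against 6.77 and 5.54 in the wildtype libraries. Gene totals do not separate full-length Fosb from its truncated splice form.

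Atf3 (ENSMUSG00000026628.13, chromosome 1, 191170296 to 191218039, minus strand), a stress-induced member of the ATF family that dimerises with Jun proteins, had 255 and 234 CPM in the overexpression-labelled libraries, against 129 and 190 CPM in the wildtype libraries. Both overexpression-labelled libraries lay above both wildtype libraries and near each other. The difference from wildtype was 0.56 in library 1 (SE 0.181, limma adjusted p = 0.0169) and 0.59 in library 2 (SE 0.187, limma adjusted p = 0.146). Between the 2 libraries it was -0.04 (SE 0.21, limma adjusted p = 0.899); the sign of this value turned with recomputed size factors (0.07) and with totals without Rn45s (0.17).

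The 3 Egr genes fell together in overexpression-labelled library 1. Egr1 (ENSMUSG00000038418.7, chromosome 18, 34859823 to 34864984, plus strand), the most abundant of them, had 151 and 1440 CPM in overexpression-labelled libraries 1 and 2, against 890 and 1509 CPM in the wildtype libraries. Library 1 stood below the other 3, and library 2 lay between the wildtype libraries. Egr1 fell by 3.07 in library 1 (SE 0.208), an 8.78-fold lower level of normalised reads, and differed by 0.33 in library 2 (SE 0.216). The wildtype libraries themselves differed by 0.73 in Egr1 (SD 0.515). That spread is wider than these SEs, which draw on limma's prior.

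Egr2 (ENSMUSG00000037868.15, chromosome 10, 67535475 to 67542188, plus strand) and Egr3 (ENSMUSG00000033730.4, chromosome 14, 70077203 to 70082614, plus strand), which limit lymphocyte activation, were nearly lost there. Egr2 had 9.03 and 243 CPM in the overexpression-labelled libraries, against 105 and 177 CPM in the wildtype libraries. It was 17.3-fold lower in library 1 (difference -3.84, SE 0.235, limma adjusted p = 1.49e-08), and library 2 was the highest of the 4 (difference 0.84, SE 0.22, limma adjusted p = 0.0893). Egr3 had 30 reads in library 1, with a 95% exact Poisson interval for counting error only of 20.2 to 42.8, and 3565 reads in library 2, against 2232 and 2369 reads in the wildtype libraries. It was 78.1-fold lower in library 1 (difference -5.45, SE 0.226, limma adjusted p = 3.51e-10) and 0.38 above wildtype in library 2 (SE 0.194, limma adjusted p = 0.371). The deposited scale understates a change down to so few reads.

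Nr4a1 (ENSMUSG00000023034.7, chromosome 15, 101254269 to 101274795, plus strand), widely used as a reporter of antigen receptor signalling in lymphocytes, had 45 and 357 CPM in the overexpression-labelled libraries, against 363 and 434 CPM in the wildtype libraries. Library 1 lay far below the rest, and library 2 just below wildtype library 1. Nr4a1 was 9.81-fold lower in library 1 (difference -3.24, SE 0.14, limma adjusted p = 5.14e-10) and differed by -0.14 in library 2 (SE 0.136, limma adjusted p = 0.667). Set directly against each other, library 1 was below library 2 by limma in Egr1 (-3.40), Egr2 (-4.68), Egr3 (-5.83), Nr4a1 (-3.10) and Fosb, and above it in Jun alone among the 10 genes; 52.6% of all genes tested passed in that contrast, 22.4% higher and 30.1% lower in library 1. A difference of -3 or lower from wildtype, as in these 4 genes, was found in 3.31% of the genes tested in library 1. This cut-off was not planned before the values were seen, so the share is a description.

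**Figure D2:**
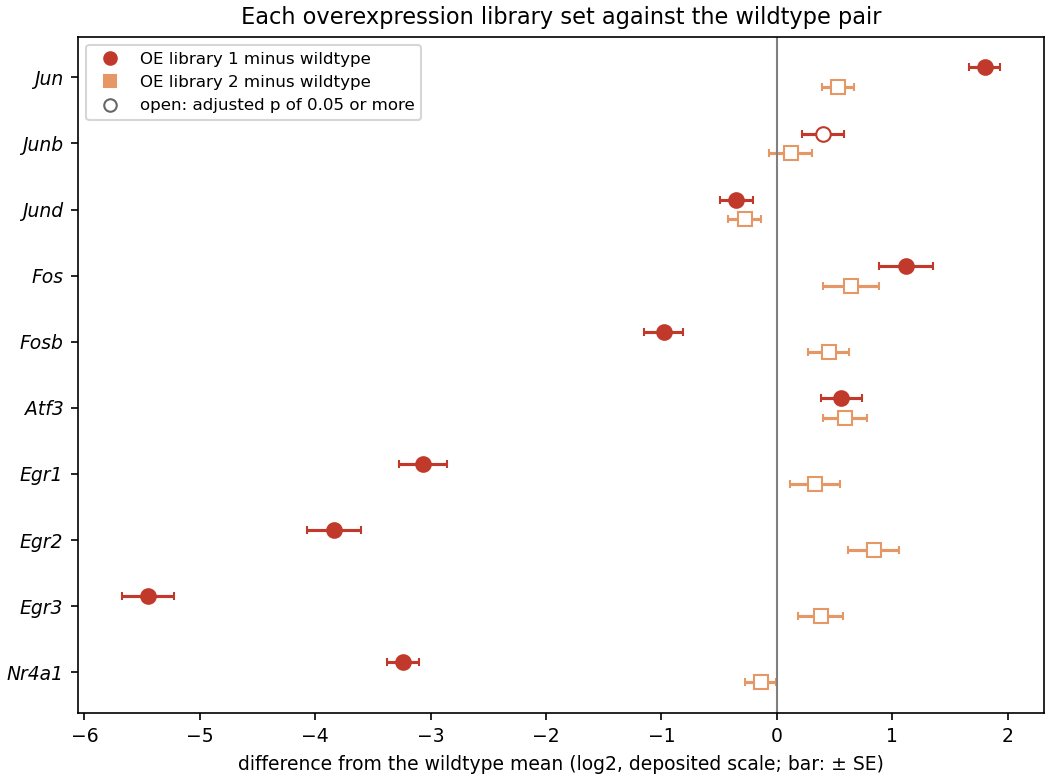
Difference of each overexpression-labelled library from the wildtype mean on the deposited log2 scale, with its SE from limma (1 library against 2 wildtype libraries); filled points have an adjusted p under 0.05. In library 1 the genes run from -5.45 for Egr3 to 1.80 for Jun, and in library 2 all 10 lie between -0.28 and 0.84 with open points.

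The order of the genes by level per length changed with it. RPKM, here CPM per kilobase of merged exons, put Jun on top in overexpression-labelled library 1, at 381, followed by Atf3 (119), Fos (97.6) and Jund (83.4), with Egr2 at 2.66 and Egr3 at 0.446 last. In overexpression-labelled library 2 Egr1 led at 321, before Jun at 141 and Fosb at 126. In wildtype libraries 1 and 2 Egr1 led at 198 and 337 and Nr4a1 followed at 104 and 124, and Junb was last at 18.6 and 23.1. Jund, Jun and Fosb stood close together in wildtype, at 90.1, 89.4 and 76.3 in library 1 and 103, 109 and 112 in library 2, and their order turned between the libraries. For each Jun read there were 0.124 and 3.19 reads of Egr1 in overexpression-labelled libraries 1 and 2, against 3.12 and 4.34 in the wildtype libraries. Lengths are merged exons of GENCODE M21, which hold every annotated isoform, so they lower the level of a gene with long rare isoforms.

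**Figure D3:**
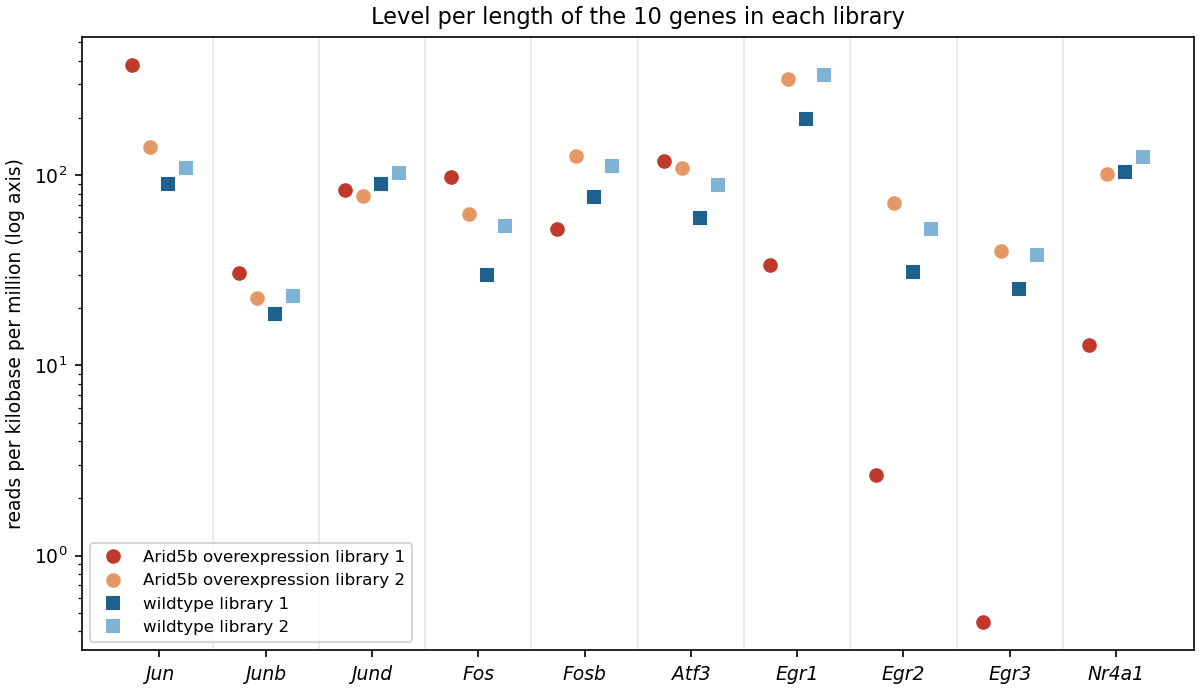
Level per length (CPM per kilobase of merged exons, log axis) of the 10 genes; each point is 1 library. Jun reaches 381 in overexpression-labelled library 1, and Egr1 is the highest gene in the other 3 libraries, at 321 in overexpression-labelled library 2 and 198 and 337 in wildtype libraries 1 and 2.

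The wildtype libraries also differed in these genes. All 10 were higher in wildtype library 2 than in wildtype library 1, by 0.15 (Jund) to 0.80 (Fos), with a median of 0.52. Over all genes tested 52.3% were higher in wildtype library 2 and the median difference was 0.017. All 10 were higher there with totals without Rn45s as well, by 0.10 to 0.75. The median absolute difference between the wildtype libraries was 0.524 in the 10 genes and 0.201 in all genes tested. The lower of these libraries is the one with Ddx3y reads; the part of sex in this difference was not tested.

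Over both groups, no member passed the test. By limma 0 of 10 passed, as did 0% of all genes tested; 280 genes, or 2.22%, but none of the 10 had an unadjusted p under 0.05. Limma-voom gave 0 genes too, and 186 before adjustment. Jun averaged 14.78 ± 0.896 in the overexpression-labelled group and 13.62 ± 0.179 in the wildtype group (SD, n = 2 each; difference 1.16, SE 0.501, limma adjusted p = 0.726). Egr3 averaged 9.87 ± 4.12 in the overexpression-labelled group and 12.41 ± 0.39 in the wildtype group (SD, n = 2 each; difference -2.54, SE 1.98, limma adjusted p = 0.726). Jun, Fos and Atf3 were higher in both overexpression-labelled libraries than in both wildtype libraries, as were 19.6% of all genes tested, and Jund and Nr4a1 were lower in both, as were 23%. The other 5 genes overlapped between the groups, and 42.6% of all genes tested did not overlap in either direction. Without overexpression-labelled library 1 the differences of Egr1, Egr2, Egr3 and Fosb turned to 0.33, 0.84, 0.38 and 0.45.

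Relatives of these genes were mostly lower in overexpression-labelled library 1 too. Of 16 tested genes among 19 other AP-1, ATF, CREB and Maf genes, 4 rose and 10 fell there, where 26.8% of all genes tested rose and 34.4% fell, with a median difference of -1.01 against -0.15 over all genes tested. Fosl2, another Fos family partner of Jun, fell by 4.08 (1.18 and 39.7 CPM in the overexpression-labelled libraries, against 39.5 and 37.2 CPM in the wildtype libraries; limma adjusted p = 1.67e-08). Maf fell by 3.18. Fosl1 had 0 and 21 reads in the overexpression-labelled libraries, against 13 and 25 reads in the wildtype libraries (difference in library 1 -1.64, limma adjusted p = 0.00894). Atf5 rose by 2.08, with 95 and 9 reads in the overexpression-labelled libraries, against 7 and 9 reads in the wildtype libraries. In library 2 none of the 16 passed (median -0.07, against 0.01 over all genes).

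Of 4 tested genes among 6 Egr partners and other NR4A and Egr relatives, 0 rose and 2 fell in library 1 (median -0.44, against -0.15 over all genes), and 61.2% of all genes passed there in either direction. Of these, Nr4a3, a receptor of the same subfamily as Nr4a1, had 14 and 2570 reads in the overexpression-labelled libraries, against 2419 and 1932 reads in the wildtype libraries (difference in library 1 -5.95, limma adjusted p = 4.47e-11). Nab1, a corepressor of Egr proteins, fell by 0.71, while Nab2 (0.10) and Nr4a2 (-0.16) did not pass in library 1. Nr4a2 had 643 and 1025 reads in the overexpression-labelled libraries, against 839 and 624 reads in the wildtype libraries. In library 2 none of the 4 passed (median -0.06).

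Among 32 further immediate early genes, all tested, 5 rose and 18 fell in library 1, where 26.8% of all genes rose and 34.4% fell (median -0.64, against -0.15 over all genes), and 1 rose and 1 fell in library 2 (median 0.06; 0.769% of all genes rose and 0.888% fell there). Klf4, a zinc finger factor, fell by 4.34 (8.64 and 247 CPM in the overexpression-labelled libraries, against 156 and 223 CPM in the wildtype libraries). Gadd45b fell by 2.95 and Per1, a clock gene, fell by 2.17. Ier5l fell by 2.19, with 0 and 11 reads in the overexpression-labelled libraries, against 49 and 27 reads in the wildtype libraries. On the other side Sgk1 rose by 1.65, Zfp36, which promotes decay of AU-rich mRNAs, by 1.60, and Ier2 by 1.38. Zfp36 had 2102 and 732 CPM in the overexpression-labelled libraries, against 575 and 677 CPM in the wildtype libraries. In library 2 Dusp1, a phosphatase of MAP kinases, rose by 0.74 (limma adjusted p = 0.038) and Plk2, a kinase, fell by 0.96 (limma adjusted p = 0.00621). Both calls were lost with totals without Rn45s and with no filter, where 0 genes passed by limma and 1757 and 2316 had an unadjusted p under 0.05. In library 1 their normalised reads were 1.42 and 0.243 times wildtype, and these comparisons share the wildtype libraries.

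Genes acting before the immediate early genes were counted in the same way. Of 25 SRF, ELK, CREB cofactor and MAP kinase pathway genes, 6 rose and 5 fell in library 1, where 26.8% of all genes rose and 34.4% fell (median 0.15, against -0.15 over all genes), and 0 passed in library 2 (median 0.10). The share called was not above that of all genes. Mapk3, a MAP kinase gene, rose by 1.70 on the log2 scale in library 1. Braf, a kinase of the same pathway, fell by 1.90, and Srf did not pass (0.15, limma adjusted p = 0.549).

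**Figure D4:**
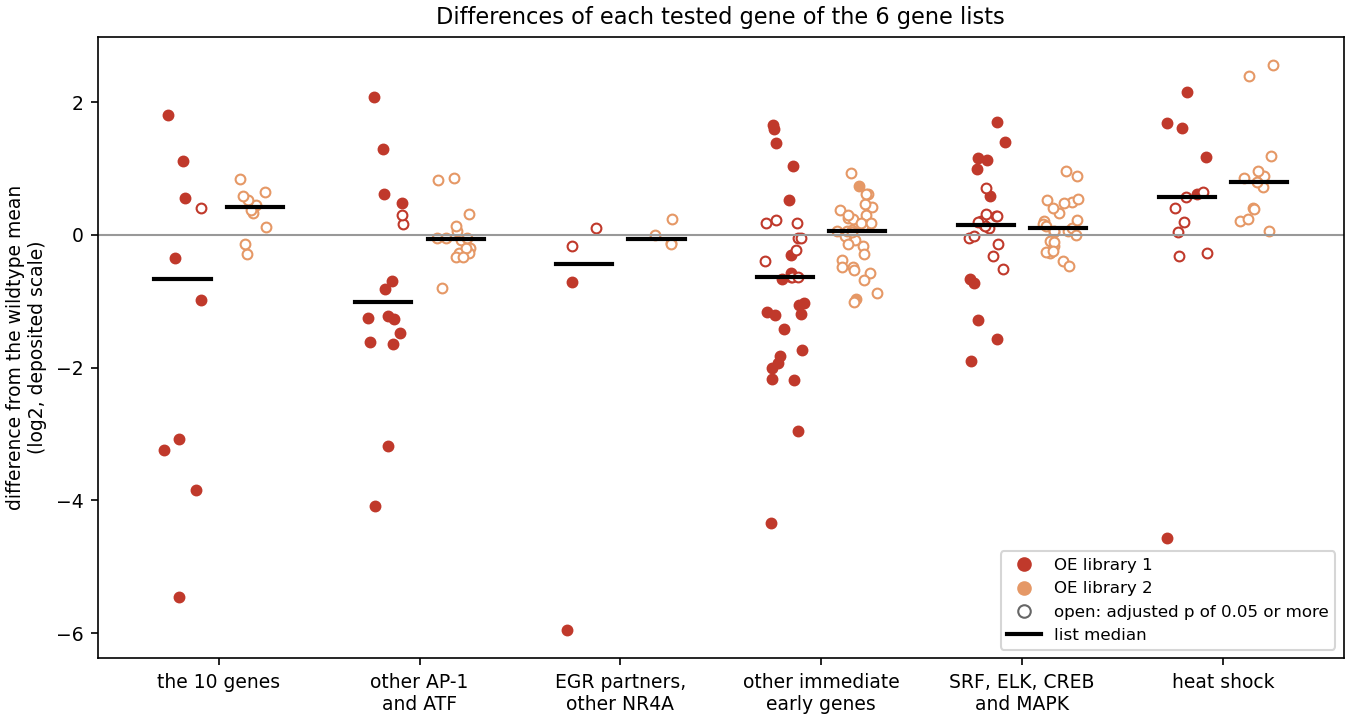
Difference from the wildtype mean (log2, deposited scale) of every tested gene of 6 gene lists in overexpression-labelled library 1 and overexpression-labelled library 2; each point is 1 gene, filled where the limma adjusted p is under 0.05, and black lines are medians. Medians in library 1 run from -1.01 for other AP-1 and ATF genes to 0.57 for heat shock genes, and in library 2 from -0.07 to 0.80.

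Heat shock genes, which handling of cells can induce, were set beside these values. Of 13 tested, 5 rose and 1 fell in library 1, where 26.8% of all genes rose and 34.4% fell (median 0.57, against -0.15 over all genes). In library 2, where 1.66% of all genes passed, 0 of the 13 did (median 0.80, against 0.01 over all genes). Hspa8 had 3769 and 1732 CPM in the overexpression-labelled libraries, against 783 and 1429 CPM in the wildtype libraries. Hspa1a and Hspa1b are near-identical copies, between which reads may be split. Hspa1a had 71.7 and 112 CPM in the overexpression-labelled libraries, against 7.99 and 48 CPM in the wildtype libraries. Hspa1b had 43.3 and 51.8 CPM in the overexpression-labelled libraries, against 1.94 and 23.8 CPM in the wildtype libraries. Both were thus lowest in wildtype library 1, where the 10 genes were below wildtype library 2. Hspb1 fell by 4.57 in library 1. The part of handling in any of these values was not tested.

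Markers of other cell types differed between the libraries as well. The 12 neutrophil markers summed to 133 and 1456 CPM in overexpression-labelled libraries 1 and 2, against 10.1 and 104 CPM in wildtype libraries 1 and 2; 11 and 12 of them had reads in the overexpression-labelled libraries, against 8 and 10 in the wildtype libraries, with Prtn3 at 0 in all but overexpression-labelled library 2 and Lcn2, Ltf and Camp at 0 in wildtype library 1. The 10 monocyte markers summed to 44.8 and 288 CPM in the overexpression-labelled libraries, against 87.1 and 94.2 CPM in the wildtype libraries. In overexpression-labelled library 2 the sum was mostly Lyz2, with 4045 reads, against 343 and 477 reads in the wildtype libraries. Fcgr1 and Cx3cr1 were at 0 in both overexpression-labelled libraries, but had only 1 and 0, and 10 and 2, reads in the wildtype libraries. The 10 T and NK cell markers summed to 4.58 and 48 CPM in the overexpression-labelled libraries, against 67.7 and 74.7 CPM in the wildtype libraries, with Cd8a, Gzma and Nkg7 at 0 in overexpression-labelled library 1. The 8 plasmacytoid dendritic cell markers summed to 202 and 834 CPM in the overexpression-labelled libraries, against 820 and 776 CPM in the wildtype libraries. Most of these reads were of Tcf4, Irf8 and Ly6d. Siglech had 4 and 518 reads in the overexpression-labelled libraries, against 1129 and 321 reads in the wildtype libraries, and Klk1 was at 0 in overexpression-labelled library 1. Of 10 erythroid markers the 5 globin genes were listed at 0 in every library, and the sum, mostly Car2, was 778 and 12.8 CPM in the overexpression-labelled libraries, against 24.9 and 26 CPM in the wildtype libraries. The part of other cells in the values of the 10 genes was not tested.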

How the data were processed

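B220-positive B cells were sorted from bone marrow of mouse tibiae and femurs and libraries were made from total RNA, per the labels' protocols. STAR, HTSeq, DESeq2 and build mm10 are named in the submitters' processing notes, without versions; settings and annotation are not given in the sources used here. The authors deposited 1 log2 value per gene and library, shaped like a variance stabilizing transformation, with 4.949 for a gene without reads. Undoing that transformation gave normalised reads, and multiplying them by a size factor for each library gave whole reads for 100% of values, within 0.01. CPM and read numbers are these recovered reads, and folds are ratios of normalised reads. Groups follow the genotype labels, which misspell that of wildtype library 2; in overexpression-labelled library 1 the column header and the title disagree by 1 digit.

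A gene was kept if 2 libraries reached the equivalent of 10 reads in a library of median size and its total reached 15, which left 12617 genes. Groups and libraries were compared by limma-trend on the deposited log2 values (limma version 3.58.1 under R version 4.3.3), two-sided and Benjamini-Hochberg adjusted over all genes tested. The filter is the rule of filterByExpr, written out by hand. Fits were also run on simulated data, with the same expected level in both overexpression libraries and the same dispersion for every gene. That setting differs from these libraries, so the run does not show how the fits behave here. Alternatives were other size factors, log2 of reads plus 0.5, other filters, limma-voom, a robust prior and leaving out libraries. The named genes are all 10 members, up to 4 called genes with the largest differences per list and the 3 genes closest in pattern to Fos, Jun and Egr1; others were chosen after their values were seen, and some named by this rule are not reported here. Members and lists were chosen with earlier results of these data known. Counting intervals cover counting error only.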

Additional observations from a re-analysis of the deposited data

How the results depend on the processing

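The median of all genes in overexpression-labelled library 1 against wildtype was -0.15 on the deposited scale and 0.03 with totals without Rn45s. Small differences in that library, such as those of Jund (-0.35) and Junb (0.40), changed in size with the scaling. Whether they passed changed too, but their directions in that library held. The number of genes called in overexpression-labelled library 1, 7721, was 2642 with no filter, and that of library 1 against library 2, 6631, was 2486 with no filter; the cause was not tested. In overexpression-labelled library 2 the 209 genes called became 22 with recomputed size factors, 0 with totals without Rn45s (1757 at an unadjusted p under 0.05), 73 with log2 of reads plus 0.5, 0 with no filter (2316 at an unadjusted p under 0.05) and 614 by limma-voom. By limma-voom Fos (0.68), Fosb (0.47), Jun (0.54), Egr2 (0.87) and Atf3 (0.61) passed as higher in that library. Of all 12617 genes tested by limma-voom there, 371 passed as higher and 243 as lower. None of the 10 members passed there by limma on the deposited scale. Over both groups the count was 0 to 7721 when 1 library was left out, the 7721 without overexpression-labelled library 2, 209 without overexpression-labelled library 1 and 1 without wildtype library 2. In overexpression-labelled library 1, Jun, Fosb, Egr1, Egr2 and Atf3 lost their calls with no filter only. Directions turned for Jund between the overexpression-labelled libraries (-0.06 on the deposited scale, 0.04 with recomputed size factors, 0.14 with totals without Rn45s) and, likewise, for Atf3 (0.07 and 0.17). Over both groups, leaving out 1 overexpression-labelled library gave -0.98 to 0.45 for Fosb, -3.07 to 0.33 for Egr1, -3.84 to 0.84 for Egr2 and -5.45 to 0.38 for Egr3, the positive values without library 1. In library 2, leaving out 1 wildtype library gave -0.01 to 0.26 for Junb and -0.04 to 0.69 for Egr1, the negative values without wildtype library 1. All 10 members kept their direction in overexpression-labelled library 1 under every alternative run. No paired analysis was possible because the labels give no replicate numbers. Depth limits the precision only of genes with few reads, such as Egr3 in overexpression-labelled library 1.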

Other observations

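The genes closest in pattern to Jun, Fos and Egr1 over the 4 libraries were sought by the root mean square distance of mean-centred log2 values among 8866 genes with a mean of at least 5 CPM. Lipo1 (distance 0.0277), Mrps21, a mitochondrial ribosomal protein gene (0.0282), and 2700094K13Rik (0.0332) were closest to Jun. Those closest to Fos were 2610015P09Rik (0.0353), Tbc1d10c (0.0458) and Ascc1 (0.0629). Egr1 had Ralgds, an exchange factor for Ral GTPases (0.0808), Kcnk5, a potassium channel gene (0.0905), and Zfp831 (0.127). Ralgds had 9.49 and 12.84 on the deposited log2 scale in overexpression-labelled libraries 1 and 2, against 12.37 and 12.97 in wildtype libraries 1 and 2. With 4 libraries and this many genes, close patterns of this kind can be common. How common they are was not tested, and the distances are a description.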
